A study of Mus musculus with 18 samples.

Results

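Interferon response genes are the genes that cells switch on when an interferon binds its receptor. Type I interferon binds the Ifnar1 and Ifnar2 chains, whose kinases Jak1 and Tyk2 activate STAT proteins. The complex ISGF3, of STAT proteins with Irf9, then binds the interferon-stimulated response element (ISRE) upstream of its targets. Type II interferon acts through a STAT dimer on another element, the gamma-activated site (GAS), and induces Irf1 among others. In haematopoietic stem cells interferon is known to drive dormant cells into cycle, and stem cells are also known to hold some of these antiviral genes at a steady level without any added interferon.

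The set described here holds 43 genes: Stat2, 3 interferon regulatory factors, and 39 antiviral effectors, sensors and modifiers. They were chosen by symbol as interferon response genes, with no measured value in the rule but with earlier results of these data known. Among the 44349 genes of the deposited table all 43 were found. All 43 also passed the filter on low values that left 14285 genes. They lie on 15 chromosomes, and several are neighbours: Oasl2 and Oasl1 are 11.0 kb apart, Rsad2 and Cmpk2 12.8 kb, Ifitm1 and Ifitm3 39.8 kb, and Ifit2 and Ifit3 7.11 kb.

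RNA was sequenced from LT-HSC, the long-term haematopoietic stem cells, which were sorted out of mouse bone marrow as Lineage-negative, Sca-1+, c-Kit+, CD34-, Flk2- and CD49b-low cells. The 18 libraries form 6 groups of 3. KO Reserve and WT Reserve are reserve LT-HSC of knockout and of wild-type mice. KO Wnt5a are knockout cells given the label of a rescue by Wnt5a, a ligand of noncanonical Wnt signalling, and KO Ctrl are their knockout controls. Wnt5a are cells with the Wnt5a label and no knockout label, and WT are wild-type cells. The knockout lacks DERARE, an enhancer in the Hoxb cluster through which retinoic acid acts from a distance, so no transcript is itself the target. The genotype was not checked here from any transcript, Hoxb genes included. The labels put both the knockout and the wild-type word on KO Ctrl and on KO Reserve, and they give no strain, age or sex, no dose or duration of Wnt5a, and no word on whether animals were pooled or the deletion was restricted to a tissue. Nothing in them says that each replicate was another animal, and p-values here rest on the spread between libraries alone.

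Expression is given as FPKM, fragments corrected for how long the transcript is and how deep the library, a scale on which levels of different genes can be set side by side. From the smallest steps between values, depth was 20400000 to 40700000 fragments in a library. At that depth 3 fragments from a 1 kb transcript give 0.0736 to 0.147 FPKM. Such a floor covers counting error only. A gene is said to be called, or to have risen or fallen, where limma's Benjamini-Hochberg adjusted p over the 14285 genes was below 0.05. Fold changes are differences of log2(FPKM + 1), which understate the change of genes near 1 FPKM, and are given with their standard error.

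The 6 reserve libraries stood apart from the other 12 in more than the members. The summed FPKM of 5 granulocyte markers was 2205 to 3284 in KO Reserve and 4002 to 10067 in WT Reserve, against 0.467 to 10.5 in the other 12 libraries. RNA of a mature lineage that the sort leaves out was thus present under the LT-HSC label. Summed markers of B lymphoid, erythroid, dendritic, and T and NK cells were also higher in each of the 6 reserve libraries than in any other. The 6 dendritic markers summed to 78.2 to 107 FPKM in KO Reserve, 323 to 408 FPKM in WT Reserve and 14.99 to 29.8 FPKM in the others, where Cd209a was at 0. The 7 monocyte and macrophage markers summed to 139.9 to 171 FPKM in KO Reserve, with Fcgr1 at 0, 469.9 to 695 FPKM in WT Reserve and 98.7 to 149.6 FPKM in the others. The 8 markers of LT-HSC summed to 22.4 to 27.0 FPKM in KO Reserve, 106 to 127 FPKM in WT Reserve and 171 to 205 FPKM in the others. Cd34, whose product the sort selects against, was at 8.30 to 14.6 FPKM in KO Reserve, 64.1 to 70.8 FPKM in WT Reserve and 299.8 to 437 FPKM in the other 12 libraries. In the headers of the deposited table the names of the 6 reserve libraries share letters that none of the other 12 names has, and what these stand for is not given there. Xist, the RNA of the inactive X chromosome of female cells, was at 4.99 to 8.64 FPKM in KO Reserve, 0.0150 to 0.802 FPKM in WT Reserve and 2.21 to 6.79 FPKM in the others.

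Averaged over the 18 libraries, the members spanned from 0.338 FPKM for Mx1 to 851 FPKM for Ifitm3. Ifitm3 and Ifitm1, membrane proteins that block the fusion of viruses with the cell, were the most abundant, and Ifitm1 averaged 521 FPKM. Next came Ifi27 with 83.0 FPKM, the exonuclease Isg20 with 57.4 FPKM and Bst2, a tether that holds budding virus on the cell, with 52.9 FPKM. Mx1, Mx2, Oas2, Oas3 and Ifit3 averaged below 1 FPKM. WT Reserve had the highest group mean for 31 of the 43 members and the lowest for 0. KO Reserve had the lowest mean for 14 and WT for 13. These ranks were not counted over all genes, so they do not set the members apart. Of all genes 30.8% were called higher and 27.9% lower in WT Reserve than in WT.

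**Figure D1:**
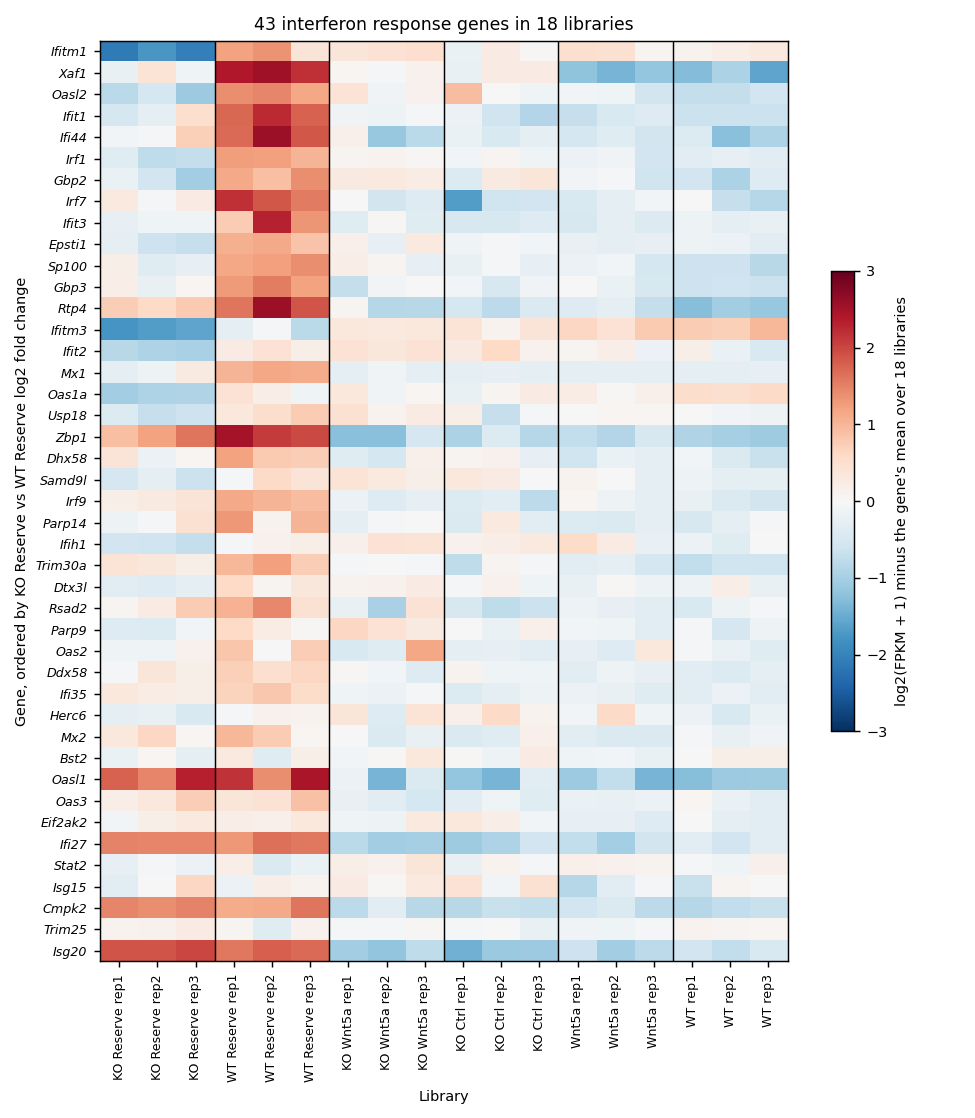
Each cell is the log2(FPKM + 1) of 1 member in 1 library minus that gene's mean over the 18 libraries, with genes down the page in the order of their KO Reserve against WT Reserve fold change and libraries across in 6 groups of 3. The WT Reserve columns are red for most genes, the KO Reserve columns are bluest for Ifitm1 and Ifitm3, and Isg20, Ifi27, Cmpk2 and Oasl1 are red in both reserve groups.

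The stretches upstream of members that carry the ISRE core are shown because this element is what ISGF3 and the interferon regulatory factors read. The core was searched as GAAANNGAAA on both strands in the 250 bases before the RefSeq start (GRCm38.p6, the assembly also called mm10), and on the opposite strand it reads as TTTCNNTTTC. A window was at hand for 33 members. The first 6 sequences belong to the 6 members that hold a match and fell in KO Reserve against WT Reserve, the comparison with which the results open. Isg15, which was not called, was added for contrast after its values were seen. Each runs 5′ to 3′ on the strand of its gene and ends at most 20 bases past the GENCODE start, and capitals mark the ISRE core, running on where matches overlap.
Ifit1 (chr19:34640729-34640888, plus strand): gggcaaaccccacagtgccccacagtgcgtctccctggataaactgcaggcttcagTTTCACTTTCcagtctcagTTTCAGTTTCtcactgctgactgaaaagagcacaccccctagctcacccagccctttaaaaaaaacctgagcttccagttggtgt
Oas1a (chr5:120907526-120907685, minus strand): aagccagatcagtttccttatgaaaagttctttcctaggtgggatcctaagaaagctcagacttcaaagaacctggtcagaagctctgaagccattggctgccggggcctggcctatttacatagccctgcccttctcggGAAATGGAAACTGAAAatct
Gbp2 (chr3:142620503-142620621, plus strand): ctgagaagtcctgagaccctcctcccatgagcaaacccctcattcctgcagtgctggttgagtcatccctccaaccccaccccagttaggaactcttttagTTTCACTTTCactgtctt
Gbp3 (chr3:142559884-142560043, plus strand): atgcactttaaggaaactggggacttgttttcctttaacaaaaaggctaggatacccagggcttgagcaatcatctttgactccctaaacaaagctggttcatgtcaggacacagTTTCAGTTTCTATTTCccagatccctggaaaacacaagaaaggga
Ifit3 (chr19:34583369-34583528, plus strand): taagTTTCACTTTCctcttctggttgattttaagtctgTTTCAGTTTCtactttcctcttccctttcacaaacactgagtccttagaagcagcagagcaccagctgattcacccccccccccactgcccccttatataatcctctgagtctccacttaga
Trim30a (chr7:104465194-104465353, minus strand): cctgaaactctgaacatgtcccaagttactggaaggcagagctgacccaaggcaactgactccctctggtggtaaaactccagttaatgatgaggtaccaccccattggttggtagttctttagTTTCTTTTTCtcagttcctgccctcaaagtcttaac
Isg15 (chr4:156200819-156200978, minus strand): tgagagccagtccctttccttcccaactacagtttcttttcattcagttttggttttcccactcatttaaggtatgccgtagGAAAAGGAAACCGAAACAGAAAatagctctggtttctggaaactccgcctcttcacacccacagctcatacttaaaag

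Ifit1 and Ifit3 each hold 2 separate copies of the core, Oas1a and Gbp3 each hold 2 that overlap, and Isg15 holds 3 that overlap. The core was present in 11 of the 33 members (33.3%), against 936 of 27025 genes with a window (3.46%). It was present in 6 of the 22 members that fell in KO Reserve (27.3%) and in 5 of the 11 that were not called (45.5%): Rsad2, Bst2, Oas3, Isg15 and Stat2. The GAS core TTCNNNGAA was found in 6 of 33 members (18.2%), among them Irf1, against 8.13% of all genes. Only the ISRE core of Bst2 shared bases with a GAS core. These matches describe letters and not bound sites.

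**Figure D2:**
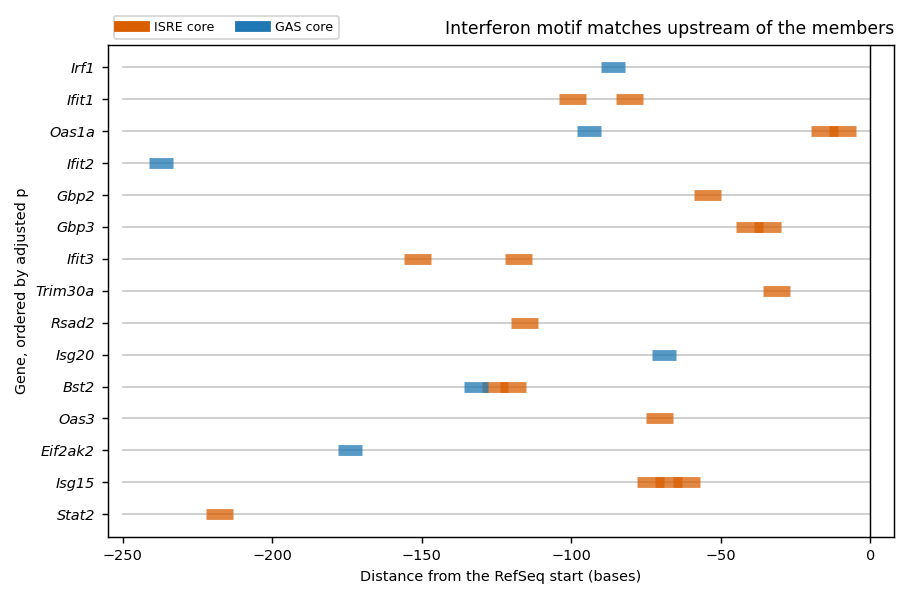
Positions of the ISRE core (orange) and the GAS core (blue) in the 250 bases before the RefSeq start of the 15 members with any match, in bases from the start and in the order of the adjusted p between KO Reserve and WT Reserve. The ISRE cores begin between -130 and -14, except 1 of Ifit3 at -156 and that of Stat2 at -222. They occur in genes that fell and in genes that were not called.

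KO Reserve was set against WT Reserve to ask how the knockout label goes with the members in reserve LT-HSC, and 29 of the 43 fell while 0 rose. Over all 14285 genes, 29.3% fell and 12.0% rose in this comparison. The 29 included the regulators Irf1, Irf7 and Irf9, all 3 measured Ifit genes, the membrane factors Ifitm1 and Ifitm3, and 4 of 5 nucleic acid sensors. The median change of the 43 members was -0.75 on the log2 scale, against -0.17 over all genes. In 29 members, Herc6 and all those called except Parp14, the KO Reserve libraries lay wholly below the WT Reserve libraries, which 30.7% of all genes showed. As these are bulk samples, fewer cells of a type and less RNA per cell cannot be told apart. Xist and several marker sums also set KO Reserve apart from WT Reserve. Genotype therefore cannot be told apart here from cell content, or from sex as far as Xist marks it.

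The regulators lie on separate chromosomes of GRCm38: Irf1 at chr11:53770014-53778374, Irf7 at chr7:141262706-141266481, Irf9 at chr14:55603571-55610030 and Stat2 at chr10:128270559-128292849. Irf1, a factor that binds the ISRE without a STAT partner, had 12.5, 9.07 and 9.40 FPKM in KO Reserve libraries and 40.0, 39.1 and 33.9 FPKM in WT Reserve libraries. The groups were far apart, and Irf1 fell by 1.78 on the log2 scale (SE 0.14, limma adjusted p = 9.96e-08). Irf7, which amplifies type I interferon production, had 6.88, 5.30 and 6.69 FPKM in KO Reserve and 28.6, 22.6 and 17.9 FPKM in WT Reserve. It fell by 1.71 (SE 0.28, limma adjusted p = 0.000149), with no overlap. Irf9, the DNA-binding part of ISGF3, had 15.8, 16.8 and 18.2 FPKM in KO Reserve and 31.6, 29.2 and 26.9 FPKM in WT Reserve, a smaller but still separate shift of -0.75 (SE 0.14, limma adjusted p = 0.000373). Stat2, its partner in ISGF3, had 2.65, 3.20 and 2.85 FPKM in KO Reserve and 3.94, 2.20 and 2.74 FPKM in WT Reserve. The Stat2 groups overlapped and the change was -0.00 (SE 0.16).

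In the other 4 groups Irf1, Irf7 and Irf9 were below their level in WT Reserve. Irf7 had 5.47, 3.44 and 3.97 FPKM in KO Wnt5a, 1.04, 3.27 and 3.37 FPKM in KO Ctrl, 3.71, 4.30 and 5.09 FPKM in Wnt5a, and 5.52, 3.03 and 2.56 FPKM in WT libraries. The low KO Ctrl value came from replicate 1. Irf1 had 17.2, 17.6 and 16.6 FPKM in KO Wnt5a, 15.2, 17.2 and 14.7 FPKM in KO Ctrl, 14.3, 15.005 and 10.6 FPKM in Wnt5a, and 12.7, 13.5 and 12.7 FPKM in WT libraries. Irf9 had 12.1, 10.3 and 11.4 FPKM in KO Wnt5a, 10.2, 10.7 and 7.57 FPKM in KO Ctrl, 14.3, 12.3 and 11.2 FPKM in Wnt5a, and 11.7, 9.98 and 9.13 FPKM in WT libraries. Every WT Reserve library was thus above all 12 libraries without the reserve label for Irf1, Irf7 and Irf9. Stat2 had 3.92, 3.69 and 4.57 FPKM in KO Wnt5a, 2.68, 3.64 and 3.24 FPKM in KO Ctrl, 3.83, 3.73 and 3.67 FPKM in Wnt5a, and 3.19, 2.95 and 3.83 FPKM in WT libraries, and was called in no comparison.

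**Figure D3:**
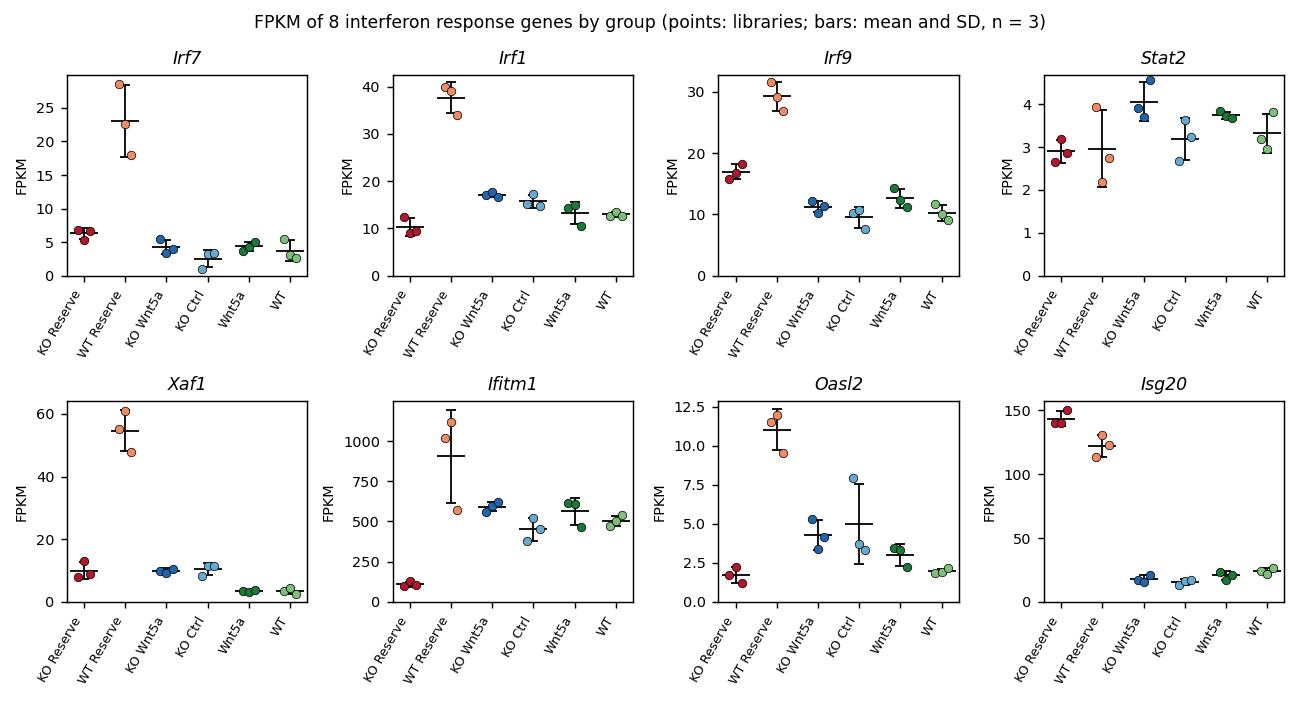
FPKM of 8 members in the 6 groups, with a point for each library and bars for the mean and SD of 3 libraries. Irf7, Irf1, Irf9, Xaf1 and Oasl2 are highest in WT Reserve, Ifitm1 is lowest in KO Reserve at 100.2 to 129 FPKM, Isg20 is high in both reserve groups, and Stat2 stays between 2.20 and 4.57 FPKM in all 18 libraries.

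Among the membrane factors, Ifitm1 had 100.2, 129 and 105 FPKM in KO Reserve and 1021, 1118 and 574 FPKM in WT Reserve libraries. It fell by 2.96 (SE 0.20, limma adjusted p = 6.08e-08), the smallest p of any member here. Ifitm3 had 217, 231 and 245 FPKM in KO Reserve and 606, 719 and 423 FPKM in WT Reserve, and fell by 1.30 (SE 0.15, limma adjusted p = 4.7e-06). Both groups of both genes were apart, although some reads may be shared between related genes of the Ifitm family. Bst2 had 43.04 to 54.7 FPKM in KO Reserve and 40.7 to 64.5 FPKM in WT Reserve, which overlapped.

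The Ifit proteins bind foreign RNA that lacks the marks of host messages. Ifit1 had 0.263, 0.506 and 1.59 FPKM in KO Reserve and 5.06, 7.56 and 5.21 FPKM in WT Reserve, and fell by 2.01 (SE 0.23, limma adjusted p = 6.09e-06). Ifit3 had 0.168, 0.275 and 0.273 FPKM in KO Reserve, close to the level that 3 fragments give, and 1.36, 5.87 and 2.48 FPKM in WT Reserve. Ifit2 had 2.04 to 2.37 FPKM in KO Reserve and 5.81 to 7.13 FPKM in WT Reserve. All 3 fell without overlap, and Ifit3 shares sequence with its copy Ifit3b.

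The oligoadenylate synthetase family, which makes the second messenger that activates RNase L, was split. Oasl2, an OAS-like member of the family, had 1.72, 2.26 and 1.24 FPKM in KO Reserve and 11.5, 11.99 and 9.52 FPKM in WT Reserve. It fell by 2.14 (SE 0.24, limma adjusted p = 3.57e-06). Its neighbour Oasl1, known in mice to restrain the translation of Irf7, had 7.94, 6.22 and 12.1 FPKM in KO Reserve and 10.7, 5.88 and 13.4 FPKM in WT Reserve, which overlapped and gave -0.15 (SE 0.35). Oas1a had 4.56 to 5.11 FPKM in KO Reserve and 9.50 to 14.5 FPKM in WT Reserve and fell, while Oas2 and Oas3 were not called. Oas1a has close paralogs, between which fragments may be divided.

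Of the nucleic acid sensors, Ifih1 and Ddx58, the RNA helicases known as MDA5 and RIG-I, fell by 0.72 (SE 0.17) and 0.44 (SE 0.14). Dhx58, the related helicase LGP2, fell by 0.81 (SE 0.21), and Zbp1, a sensor of left-handed nucleic acid, fell by 0.96 (SE 0.23). Eif2ak2, the kinase PKR that halts translation on double-stranded RNA, had 8.72 to 11.6 FPKM in KO Reserve and 10.6 to 11.95 FPKM in WT Reserve and was not called. Of the dynamin-like GTPases Mx1, Gbp2 and Gbp3 fell and Mx2, annotated as a polymorphic pseudogene, did not pass. Mx1 had 0.0170, 0.122 and 0.494 FPKM in KO Reserve and 1.52, 1.77 and 1.71 FPKM in WT Reserve. Gbp2 had 1.401 to 3.37 FPKM in KO Reserve and 8.27 to 12.02 FPKM in WT Reserve, and its paralog Gbp2b may share fragments with it.

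The ISG15 and ubiquitin system changed in part. Usp18, the protease that removes Isg15 and blocks signalling at Ifnar2, had 4.82 to 6.10 FPKM in KO Reserve and 10.8 to 15.1 FPKM in WT Reserve and fell by 1.11 (SE 0.18, limma adjusted p = 0.000157). Isg15, the ubiquitin-like modifier itself, had 1.79, 2.58 and 4.40 FPKM in KO Reserve and 2.14, 3.06 and 2.82 FPKM in WT Reserve, which overlapped. Herc6, its ligase in mice, and Trim25, a ligase that acts on RIG-I, were not called. The ligase Dtx3l fell together with its binding partner Parp9, an ADP-ribosyltransferase homologue, by 0.67 (SE 0.15) and 0.58 (SE 0.17). The annotated genes overlap on opposite strands and share 458 exon bases, and the libraries kept no strand, so reads there cannot be told apart. Parp14, another of that family, had 2.20 to 3.87 FPKM in KO Reserve and 2.83 to 7.79 FPKM in WT Reserve and was called although the groups overlapped.

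Of the 12 remaining members 8 fell. Xaf1, which counters the apoptosis inhibitor XIAP, had 8.07, 13.1 and 8.77 FPKM in KO Reserve and 55.2, 60.9 and 47.9 FPKM in WT Reserve, and fell by 2.36 (SE 0.19, limma adjusted p = 1.45e-07). Epsti1 had 7.95, 6.06 and 5.81 FPKM in KO Reserve and 21.97, 22.9 and 18.9 FPKM in WT Reserve, and fell by 1.56 (SE 0.14, limma adjusted p = 5.01e-07). Sp100, a component of PML nuclear bodies, had 30.2, 20.5 and 22.4 FPKM in KO Reserve and 60.3, 63.2 and 71.5 FPKM in WT Reserve, and fell by 1.39 (SE 0.16, limma adjusted p = 3.99e-06). None of these 3 overlapped between the groups. Ifi44, Rtp4, Samd9l, Trim30a and Ifi35 also fell, by 0.43 for Ifi35 to 1.84 for Ifi44. Ifi35 shares 290 of its exon bases with the antisense gene Gm11626, at a mean of 40.3 FPKM, and Trim30a has close paralogs.

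The 14 members that were not called ran from -0.62 for Rsad2, the antiviral enzyme viperin, to 0.23 for Isg20. Isg20 had 140.1, 140.0 and 151 FPKM in KO Reserve and 114, 131 and 123 FPKM in WT Reserve, so each KO Reserve library was above each WT Reserve library, the only such member, where 14.0% of all genes did so. Ifi27 had 171 to 173 FPKM in KO Reserve and 153 to 195 FPKM in WT Reserve, and Cmpk2, a mitochondrial nucleotide kinase encoded beside Rsad2, had 10.6 to 11.3 FPKM in KO Reserve and 8.50 to 12.3 FPKM in WT Reserve.

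The size of the KO Reserve change depended on scaling, since the median of all genes was -0.17 as deposited, 0.03 after quantile normalization and 0.00 after median-ratio scaling. Under quantile normalization 24 members fell and 2 rose (Cmpk2 and Trim25), and under median-ratio scaling 25 fell and 2 rose (Isg20 and Trim25). Of all genes 19.3% fell and 22.1% rose under quantile normalization, and 20.1% fell and 21.2% rose under median-ratio scaling. Without WT Reserve replicate 1, Parp9, Parp14 and Ddx58 were no longer called, and the count was 26, where 26.5% of all genes fell. Parp14 was also lost without KO Reserve replicate 1 or 2 or WT Reserve replicate 3, and Ddx58 without KO Reserve replicate 1. In the same contrast the dendritic and LT-HSC marker sums and Xist moved as given above, and so did Siglech, a marker of the interferon-producing plasmacytoid dendritic cell picked after its values were seen, with 0.610, 0.283 and 1.492 FPKM in KO Reserve and 9.11, 3.92 and 1.496 FPKM in WT Reserve. Of the tested markers, 7 of 7 for LT-HSC, 4 of 4 for dendritic cells and 5 of 5 for granulocytes fell. So did 3 of 3 for monocytes and macrophages, 3 of 3 for T and NK cells, 2 of 4 for B lymphoid cells and 3 of 4 of the sort gate. For erythroid cells 3 of 5 rose. Over all genes 29.3% fell and 12.0% rose. The part of the markers and of Xist in the change of the members was not tested.

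**Figure D4:**
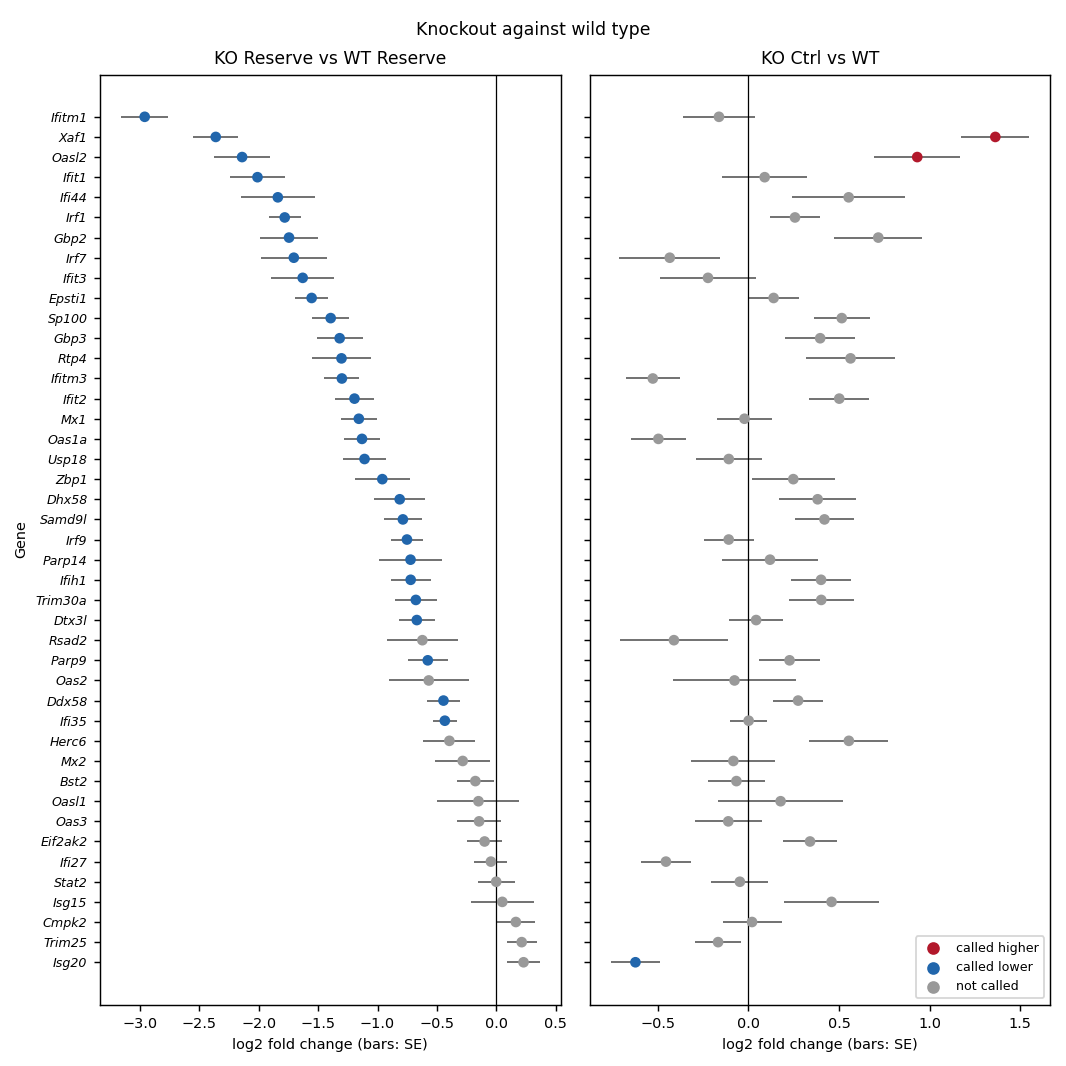
Log2 fold change of each member with its standard error, in KO Reserve against WT Reserve (left) and KO Ctrl against WT (right), with called genes in colour. In the left panel 29 members lie below 0 and are called, while in the right panel Xaf1 and Oasl2 are called above 0 and Isg20 below it.

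The same genotype contrast outside the reserve set, KO Ctrl against WT, gave 3 called members of 43, with 2 higher and 1 lower, where 2.65% of all genes were called, 1.53% higher and 1.12% lower. Xaf1 had 8.15, 11.6 and 11.6 FPKM in KO Ctrl and 3.34, 4.56 and 2.53 FPKM in WT libraries. It rose by 1.36 (SE 0.19, limma adjusted p = 0.000755), with the groups apart. Oasl2 had 7.92, 3.69 and 3.35 FPKM in KO Ctrl and 1.87, 1.89 and 2.16 FPKM in WT, and rose by 0.93 (SE 0.24, limma adjusted p = 0.0447), with replicate 1 of KO Ctrl far above the rest. Isg20 had 13.0, 16.5 and 16.8 FPKM in KO Ctrl and 24.5, 21.8 and 26.6 FPKM in WT, and fell by 0.62 (SE 0.14, limma adjusted p = 0.0195). Xaf1 and Oasl2, which fell in KO Reserve, thus rose here. The median of the 43 members was 0.12, against 0.04 over all genes.

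Xaf1 held its call in all 6 fits without 1 library, but Oasl2 kept it only without KO Ctrl replicate 3 (1.12, limma adjusted p = 0.037) and ranged from 0.60 to 1.12. Isg20 lost its call without KO Ctrl replicate 1 (limma adjusted p = 0.0622), WT replicate 1 (0.0705) or WT replicate 3 (0.125). Counts of called members ran from 1, without WT replicate 1 or WT replicate 3, to 4 without KO Ctrl replicate 3. In these fits 1.38%, 0.924% and 1.61% of all genes were called in that order. With quantile normalization 1 member rose and 1 fell, and 2.49% of all genes were called. With median-ratio scaling 1 rose and 2 fell, and 3.66% of all genes were called. With library weights 6 rose and 4 fell, where 6.11% of all genes rose and 4.25% fell.

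WT Reserve was set against WT to ask how the reserve label goes with the members in wild-type cells, and 34 of 43 rose while 1 fell. Over all genes 30.8% rose and 27.9% fell. The median change was 1.21 for the members and 0.06 for all genes. Xaf1 reached the 47.9 to 60.9 FPKM of WT Reserve given above against 2.53 to 4.56 FPKM in WT, a rise of 3.65 (SE 0.19, limma adjusted p = 6.81e-11). Ifit1 had 5.06 to 7.56 FPKM in WT Reserve and 0.176, 0.167 and 0.175 FPKM in WT libraries, and rose by 2.55 (SE 0.23, limma adjusted p = 8.75e-08). Sp100 had 60.3 to 71.5 FPKM in WT Reserve and 16.8, 16.9 and 14.5 FPKM in WT, and rose by 1.95 (SE 0.16, limma adjusted p = 1.55e-08). No WT Reserve library overlapped with WT for these 3 genes.

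Zbp1 had 13.1, 9.62 and 8.86 FPKM in WT Reserve and 0.333, 0.256 and 0.190 FPKM in WT libraries, and rose by 3.18 (SE 0.23, limma adjusted p = 4.74e-09). Rtp4, a chaperone of receptors at the cell surface, had 24.1, 47.6 and 29.4 FPKM in WT Reserve and 2.43, 3.0 and 2.78 FPKM in WT, and rose by 3.16 (SE 0.24, limma adjusted p = 1.06e-08). Neither gene overlapped between the groups. Ifitm3 was the 1 member that fell, with 423 to 719 FPKM in WT Reserve against 1218 to 1481 FPKM in WT, by 1.21 on the log2 scale (SE 0.15). The part that the granulocyte, lymphoid, erythroid and dendritic RNA of the reserve libraries has in this comparison and the next was not tested. The 8 members not called were Oas1a, Stat2, Trim25, Bst2, Isg15, Ifih1, Herc6 and Oas2. Without WT Reserve replicate 1, Parp9, Mx2 and Dtx3l were no longer called, with Dtx3l at 0.27 (limma adjusted p = 0.159). Ifit2 lost its call without WT Reserve replicate 2 or WT replicate 2 or 3, and Eif2ak2 without WT Reserve replicate 3 or WT replicate 2 or 3. Dtx3l was also lost without WT Reserve replicate 3 or WT replicate 1 or 3, and Parp9 without WT replicate 2.

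KO Reserve against KO Ctrl asks the same in knockout cells, and the members divided: 13 rose and 11 fell, where 24.8% of all genes rose and 40.4% fell. In all, 24 members (55.8%) were called, against 65.3% of all genes. Isg20 had 140.0 to 151 FPKM in KO Reserve and 13.0 to 16.8 FPKM in KO Ctrl, and rose by 3.14 (SE 0.14, limma adjusted p = 4.05e-12). Ifi27 had 173, 171 and 172 FPKM in KO Reserve and 28.8, 31.9 and 40.8 FPKM in KO Ctrl, and rose by 2.33 (SE 0.14, limma adjusted p = 2.61e-10). Cmpk2 had 11.1, 10.6 and 11.3 FPKM in KO Reserve and 1.47, 1.78 and 1.67 FPKM in KO Ctrl, and rose by 2.18 (SE 0.16, limma adjusted p = 4.47e-09). These 3 genes rose in both genotypes, since in WT Reserve against WT Isg20 rose by 2.29 (SE 0.14), Ifi27 by 1.92 (SE 0.14) and Cmpk2 by 2.04 (SE 0.16).

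Oasl1 had 7.94, 6.22 and 12.1 FPKM in KO Reserve and 0.167, 0 and 1.06 FPKM in KO Ctrl, and rose by 2.82 (SE 0.35, limma adjusted p = 1.99e-06). Zbp1 had 3.65, 4.71 and 6.53 FPKM in KO Reserve and 0.297, 0.859 and 0.382 FPKM in KO Ctrl, and rose by 1.97 (SE 0.23, limma adjusted p = 1.13e-06). Both groups of both genes were apart. Against these stood Ifitm1, with 100.2 to 129 FPKM in KO Reserve and 380, 524 and 453 FPKM in KO Ctrl, which fell by 2.01 (SE 0.20, limma adjusted p = 2.86e-07). Ifitm3 had 217 to 245 FPKM in KO Reserve and 797 to 976 FPKM in KO Ctrl and fell by 1.98 (SE 0.15, limma adjusted p = 4.46e-09). Ifit2 had 2.37, 2.17 and 2.04 FPKM in KO Reserve and 6.26, 8.08 and 5.54 FPKM in KO Ctrl and fell by 1.24 (SE 0.17, limma adjusted p = 4.87e-06). Of the regulators Irf7 and Irf9 rose and Irf1 fell. Quantile normalization gave 17 higher and 6 lower, where 31.6% of all genes were higher and 32.7% lower. Median-ratio scaling gave 16 higher and 8 lower, where 32.4% of all genes were higher and 33.0% lower. Mx2 lost its call without KO Reserve replicate 1 or 2 or KO Ctrl replicate 1 or 2 (highest limma adjusted p = 0.186). Gbp2 lost it without KO Reserve replicate 3 or KO Ctrl replicate 2 or 3 (0.125), Herc6 without KO Reserve replicate 3 or KO Ctrl replicate 2 (0.107), and Trim30a without KO Ctrl replicate 1 (0.0787).

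**Figure D5:**
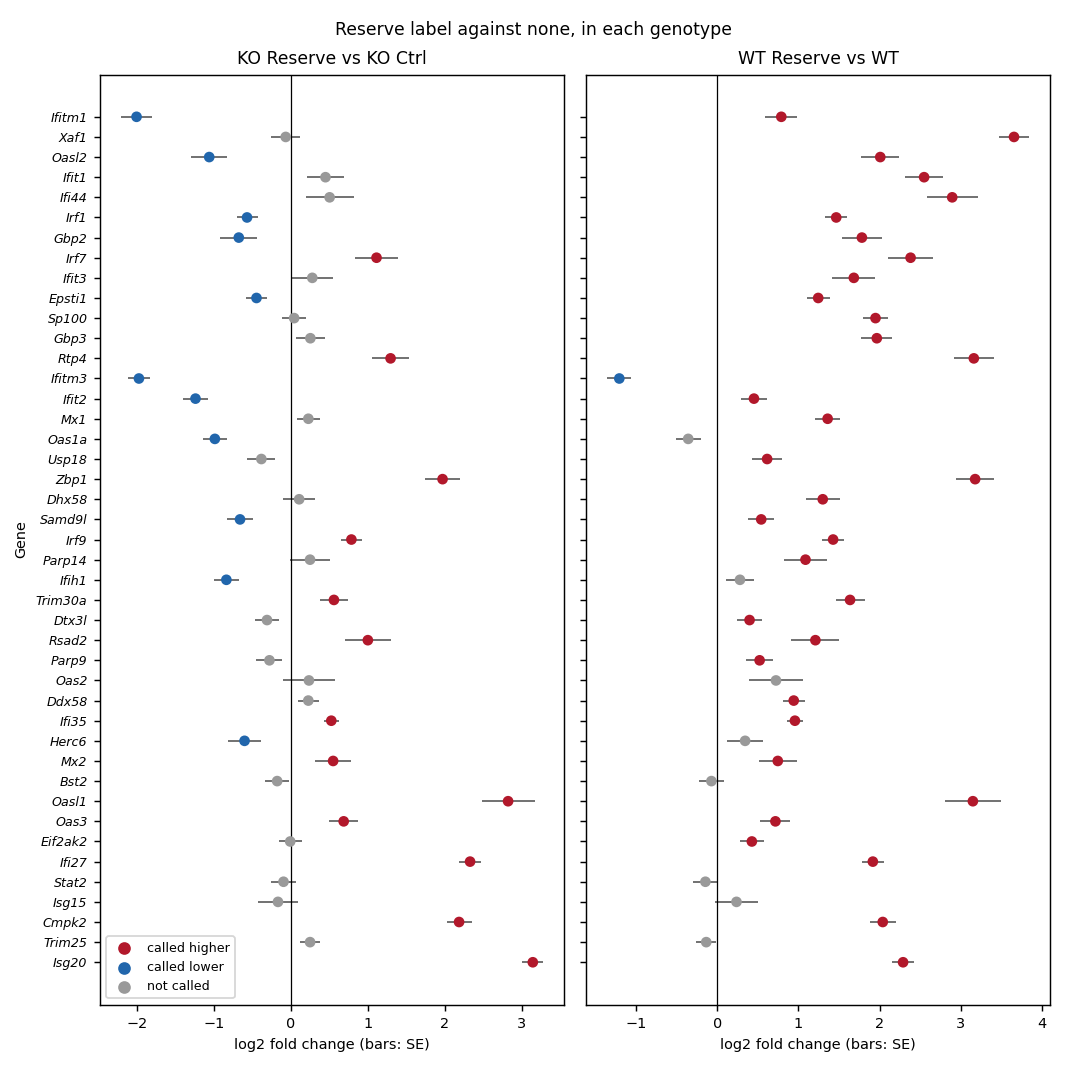
Log2 fold change of each member with its standard error for the reserve label, in knockout cells (KO Reserve against KO Ctrl, left) and wild-type cells (WT Reserve against WT, right). In wild-type cells 34 members are called above 0, while in knockout cells 13 are called above 0 and 11 below it.

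The test of the difference between these contrasts, KO Reserve minus KO Ctrl less WT Reserve minus WT, called 30 of 43 members. In 29 the difference was negative and in 1, Isg20, it was positive, where over all genes 22.9% were negative and 8.03% positive. Xaf1 differed by -3.73 (SE 0.27, limma adjusted p = 2.71e-07) and Oasl2 by -3.07 (SE 0.33, limma adjusted p = 8.97e-06). Ifitm1 differed by -2.80 (SE 0.28, limma adjusted p = 7.25e-06), Gbp2 by -2.46 (SE 0.34) and Irf1 by -2.04 (SE 0.19). Sp100, Ifit2 and Epsti1 differed by -1.91 (SE 0.22), -1.70 (SE 0.23) and -1.69 (SE 0.20). Isg20 differed by 0.85 (SE 0.19, limma adjusted p = 0.00295). With quantile normalization 2 members were positive and 20 negative, where 15.1% of all genes were positive and 13.8% negative. With median-ratio scaling 3 were positive and 20 negative, where 16.1% of all genes were positive and 13.8% negative. Marker genes differed in the same contrast. Of those tested, 7 of 7 for LT-HSC, 4 of 4 for dendritic cells and 4 of 4 for B lymphoid cells were negative. So were 4 of 5 for granulocytes, 4 of 4 of the sort gate, 2 of 3 for monocytes and macrophages and 1 of 3 for T and NK cells. Of the erythroid markers 2 of 5 were positive. The part of the markers in the differences of the members was not tested. Of the 12 fits without 1 library, Irf7 lost this call in 6 (highest limma adjusted p = 0.0633, without WT replicate 3), Oas1a in 8, Ifi35 in 7, Herc6 in 4, Irf9 in 2, and Dtx3l and Parp9 in 1 each. For Irf7 these were KO Reserve replicate 2, WT Reserve replicate 1, and replicates 2 and 3 of KO Ctrl and of WT.

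Set side by side, the 3 reserve contrasts sort the members into a few patterns. For 13 members, Xaf1, Ifit1, Ifit3, Ifi44, Sp100, Mx1, Gbp3, Usp18, Ddx58, Dhx58, Dtx3l, Parp9 and Parp14, WT Reserve was higher than WT, KO Reserve was lower than WT Reserve, and KO Reserve against KO Ctrl was not called. For 6 more (Irf7, Irf9, Rtp4, Zbp1, Trim30a and Ifi35) KO Reserve was lower than WT Reserve and still higher than KO Ctrl. For 7 (Irf1, Ifitm1, Ifit2, Oasl2, Gbp2, Epsti1 and Samd9l) it was lower than both. The 7 members Isg20, Ifi27, Cmpk2, Rsad2, Oasl1, Oas3 and Mx2 were higher in both reserve groups than in their controls and, on the deposited scale, not called between KO Reserve and WT Reserve. Only Ifitm3 fell in all 3 contrasts, and Bst2, Isg15, Oas2, Stat2 and Trim25 were called in none of the 9 comparisons in the fit over all 18 libraries on the deposited scale. Among the alternatives, library weights called Isg15 and Oas2 in 1 comparison each, the fit on WT Reserve and WT alone called Oas2, and both other scalings called Trim25. The contrasts share libraries, so the patterns are descriptions. How many of all genes show each pattern was not counted, so the patterns do not set the members apart. In single contrasts, 29.3% of all genes fell and 12.0% rose in KO Reserve against WT Reserve. In WT Reserve against WT 30.8% rose and 27.9% fell, and in KO Reserve against KO Ctrl 24.8% rose and 40.4% fell.

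Wnt5a was compared with its control in each genotype to ask whether it moves the members. In Wnt5a against WT 0 of 43 members were called by limma, where 0.0490% of all genes were, and 5 members had an unadjusted p below 0.05, where 7.88% of all genes did. The smallest p belonged to Rtp4, with 5.36, 5.85 and 4.06 FPKM in Wnt5a and 2.43, 3.0 and 2.78 FPKM in WT libraries, a difference of 0.70 (SE 0.24). Sp100 had 23.4, 25.2 and 18.2 FPKM in Wnt5a and 16.8, 16.9 and 14.5 FPKM in WT, a difference of 0.44 (SE 0.16). Both had all Wnt5a libraries above WT but an adjusted p of 0.503 in limma. Ifi27 had 36.5, 30.0 and 41.7 FPKM in Wnt5a and 48.8, 41.3 and 49.2 FPKM in WT, a difference of -0.36 (SE 0.14) with overlap. When libraries were weighted by their estimated quality, 8 members were called: Gbp3, Ifih1, Irf9, Oasl2, Rtp4 and Sp100 were higher and Ifi27 and Oas1a lower. In that fit 10.8% of all genes were called.

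In KO Wnt5a against KO Ctrl, the rescue comparison, 0 of 43 members were called by limma, where 1.02% of all genes were, and 3 had an unadjusted p below 0.05, where 10.7% of all genes did. Parp9 had 12.7, 11.2 and 9.84 FPKM in KO Wnt5a and 8.05, 6.75 and 8.93 FPKM in KO Ctrl, a difference of 0.46 (SE 0.17). Usp18 had 12.01, 9.09 and 10.2 FPKM in KO Wnt5a and 9.71, 4.88 and 8.06 FPKM in KO Ctrl, and Irf7 differed by 0.64 (SE 0.28) through the values given above. Parp9 and Irf7 did not overlap between the groups, and Usp18 did. Xaf1, which rose in KO Ctrl against WT, had 10.02, 9.33 and 10.7 FPKM in KO Wnt5a, within the range of KO Ctrl.

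In KO Wnt5a against Wnt5a, Xaf1 was the 1 called member of 43, where 3.23% of all genes were called. It had 3.59, 3.06 and 3.73 FPKM in Wnt5a libraries, all below KO Wnt5a, and rose by 1.30 (SE 0.19, limma adjusted p = 0.00101), a call that held without any 1 library. Library weights gave 3 called members here, where 10.8% of all genes were called. The genotype difference of Xaf1 was therefore called in both pairs of groups outside the reserve set. The test of whether the Wnt5a difference depends on genotype called 0 of 43 members in limma, where 0.0700% of all genes were called. An unadjusted p below 0.05 was reached by 2 members, Isg20 at 0.45 (SE 0.19) and Oas1a at 0.46 (SE 0.22), where 6.04% of all genes did. Rtp4 came next at -0.65 (SE 0.35).

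The rest of the pathway was followed with lists of other genes. Of 21 interferon ligand genes, 14 were listed at 0 in all 18 libraries, 0 passed the filter, and the highest value was 0.846 FPKM. The receptor chains were present: Ifnar1 had 6.09, 7.41 and 6.23 FPKM in KO Reserve and 9.28, 7.71 and 7.99 FPKM in WT Reserve, a difference of -0.30 (SE 0.12) that was not called. Ifnar2 had 52.3, 40.1 and 42.6 FPKM in KO Reserve and 60.7, 55.0 and 56.7 FPKM in WT Reserve, and fell by 0.35 (SE 0.12, limma adjusted p = 0.0248). Jak1 fell by 0.34 (SE 0.09, limma adjusted p = 0.00535), and Tyk2, at 0.24 (SE 0.21), was not called. Of 10 tested receptors, kinases and STAT factors 0 rose and 7 fell in KO Reserve against WT Reserve, with a median of -0.43. The receptor chains Il10rb and Ifngr2 were among the 7. Over all genes 12.0% rose and 29.3% fell there, with a median of -0.17.

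Of 10 feedback inhibitors 1 rose and 6 fell in KO Reserve against WT Reserve, with a median of -0.54. Beside this list and those that follow, 12.0% of all genes rose and 29.3% fell in this comparison, with a median of -0.17. Socs1, which blocks the kinases of the receptor, had 1.44, 1.76 and 1.75 FPKM in KO Reserve and 7.60, 6.98 and 7.59 FPKM in WT Reserve, and fell by 1.66 (SE 0.18, limma adjusted p = 2.19e-06). All 14 tested interferon-inducible GTPases outside the set fell, with a median of -1.32, among them Igtp, Irgm1, Ifi47 and Gbp4. Igtp had 8.81, 7.42 and 6.55 FPKM in KO Reserve and 26.8, 33.5 and 24.4 FPKM in WT Reserve, with no overlap. In WT Reserve against WT 13 of these 14 rose and 0 fell, where 30.8% of all genes rose and 27.9% fell. Of the 14 tested sensors and adaptors 0 rose and 8 fell in KO Reserve, led by Tmem173, the adaptor STING, at -2.03 (SE 0.18). Of the 7 tested interferon regulatory factors outside the set 0 rose and 2 fell in KO Reserve, with a median of 0.11. Irf2, which competes with Irf1 for the same element, was among the 2 and fell by 0.91 (SE 0.15, limma adjusted p = 0.000194).

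Of 46 further interferon-stimulated genes that passed the filter, 2 rose and 29 fell in KO Reserve against WT Reserve, with a median of -0.63. Over all genes 12.0% rose and 29.3% fell, with a median of -0.17. Shisa5 and Rnf114 were among those of the list that fell. In WT Reserve against WT 28 of the 46 rose and 6 fell, where 30.8% of all genes rose and 27.9% fell. Ly6a, which encodes the Sca-1 of the sort gate and is itself induced by interferon, had 20.2, 20.1 and 25.3 FPKM in KO Reserve and 169, 191 and 95.5 FPKM in WT Reserve. It fell by 2.69 (SE 0.20, limma adjusted p = 8.56e-08) with the groups apart. In KO Ctrl against WT the direction was opposite: Ly6a had 163, 201 and 190 FPKM in KO Ctrl and 91.0, 85.8 and 95.7 FPKM in WT, and rose by 1.01 (SE 0.20, limma adjusted p = 0.0119). Of the GTPases, Gbp2b and Gbp7 also rose there, by 1.04 (SE 0.21) and 0.51 (SE 0.12), where 1.53% of all genes rose. With Wnt5a in either genotype, none of these lists had more than 1 called gene, which was Socs3 at -1.23 (SE 0.20) in KO Wnt5a against KO Ctrl.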

How the data were processed

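The deposited table holds FPKM per gene for 18 libraries, made by the authors from an unstranded ultra-low-input kit. CASAVA 1.8.2, TopHat2 2.0.10, Cufflinks and the mm10 build appear in the submitters' processing notes. Of its 44349 genes, 43938 matched GENCODE M21 by identifier. Missing values (33, in 16 genes) were left out. The filter kept the 14285 genes that reached 1 FPKM in 3 or more libraries, and limma 3.58.1 in R 4.3.3 fitted log2(FPKM + 1) with 1 mean per group over all 18 libraries and a trended, robust prior. All p-values are two-sided, and Benjamini-Hochberg adjustment ran over the 14285 genes within a comparison. The test was also run on simulated data in which few genes changed. The reserve contrasts differ from that setting, so the simulation does not show how the test behaves in them. FPKM are not counts, so no count model was used, and each library's depth is an estimate from 12941 single-transcript genes.

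The members, lists and comparisons were chosen with earlier results of these data known. All 43 members could be named. Values per library were given for Stat2, Irf1, Irf7 and Irf9 and, in each comparison, for up to 8 called members with the smallest adjusted p, or the 3 smallest p where none was called. Ranges stand for others, and the library values of Ifit3, Mx1, Oasl1, Isg15 and Isg20 in KO Reserve against WT Reserve were added after they were seen. From the other lists, up to 4 genes a list with the smallest p were named, besides Ifnar1, Ifnar2, Jak1, Tyk2, Socs1 and Ly6a. Alternatives were other scalings (quantile, median-ratio), no filter or one on a mean of 5 FPKM, a smaller pseudocount of 0.1, a prior without trend, library weights, a replicate block, fits on fewer groups and each library left out.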

Additional observations from a re-analysis of the deposited data

Results flagged for a closer look

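The members below were singled out because the difference between reserve and control libraries was not the same in knockout as in wild-type cells, by limma's test of that difference. It called 30 of the 43 members, 29 negative and 1 positive, where 22.9% of all genes were negative and 8.03% positive. With quantile normalization 20 members were negative and 2 positive, and with median-ratio scaling 20 and 3. Of all genes 13.8% were negative under either scaling. The differences on the log2 scale, knockout minus wild type, were -3.73 for Xaf1, -3.07 for Oasl2, -2.80 for Ifitm1, -2.46 for Gbp2, -2.04 for Irf1, -1.91 for Sp100, -1.70 for Ifit2 and -1.69 for Epsti1. Isg20 was the single member in the other direction, at 0.85. In the same test 7 of 7 LT-HSC markers, 4 of 4 dendritic markers, 4 of 4 B lymphoid markers and 4 of 5 granulocyte markers were negative. So were 4 of 4 of the sort gate, 2 of 3 monocyte and macrophage markers and 1 of 3 T and NK markers. Of the erythroid markers 2 of 5 were positive. The part of the markers was not tested.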

How the results depend on the processing

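No member called in the fit as reported had the opposite sign under the alternatives tried. Members not called there were not held to this check. Among them Eif2ak2, not called in KO Reserve against KO Ctrl, was called higher under quantile normalization (0.42, limma adjusted p = 0.0266). A mean of at least 5 FPKM left 23 members, so fewer members were tested. Of these, 18 were called in KO Reserve against WT Reserve (47.4% of all genes) and 19 in WT Reserve against WT (62.3%). In KO Reserve against KO Ctrl 15 were called (70.4% of all genes), and 19 in the difference between the last 2 (35.9%). KO Wnt5a against Wnt5a gave 2 calls (4.14% of all genes). With library weights, which were estimated from the data, 10 members were called in KO Ctrl against WT (6 higher and 4 lower), 8 in Wnt5a against WT (6 higher and 2 lower) and 3 in KO Wnt5a against Wnt5a, where 10.4%, 10.8% and 10.8% of all genes were called in that order; the cause was not tested. KO Ctrl against WT gave 1 call with no filter, where 0.764% of all genes were called. It gave 1 with the libraries of the comparison only (2.18% of all genes), and 1 to 4 without 1 library (0.924% to 3.23%). With the 12 libraries without the reserve label, an alternative chosen after seeing the data, KO Wnt5a against Wnt5a gave 2 calls, adding Parp9. In that fit 5.10% of all genes were called. Same-numbered replicates did not deviate together (correlations from -0.078 to 0.079), so the numbers were not taken as pairs. With the replicate block the counts were 29 in KO Reserve against WT Reserve (40.9% of all genes) and 3 in KO Ctrl against WT (2.76%). They were 35 in WT Reserve against WT (58.6%) and 23 in KO Reserve against KO Ctrl (65.0%), with Mx2 lost. The difference gave 30 (30.7%) and KO Wnt5a against Wnt5a 1 (2.98%). Depth limits members near the floor, Mx1, Ifit3 and Oas2 among them.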
